A study of Mus musculus with 6 samples.

Results

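The 30 genes described here carry fatty acids into the heart and break them down. They were taken by name from a list of enzymes, carriers and regulators and grouped by step: uptake, activation, the carnitine shuttle, the reactions of beta-oxidation, transfer of electrons, and a nuclear receptor with a peroxisomal enzyme. All 30 were among the 20121 genes listed, and all 30 were among the 14877 genes with enough counts to test. RNA was sequenced from whole hearts taken at postnatal day 14 from mouse pups of mixed ICR and C57BL/6 strain background. The 3 mutant pups (Myh6-Cre; TRalphaAMI) carried Cre recombinase under the Myh6 promoter, which is active in heart muscle cells, together with a knock-in allele that, once Cre has acted, expresses thyroid hormone receptor alpha in a dominant negative version. The 3 control pups (TRalphaAMI) were littermates with that allele and without Cre, so both groups carried the allele. No group carried Myh6-Cre alone, so what Cre does by itself and what the altered receptor does cannot be told apart. The comparison asks which of these genes differ in level when the altered receptor is made in heart muscle cells.

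The heart of a newborn mouse runs largely on glucose and lactate, and during suckling it turns to fatty acids as its main fuel. Lipoprotein lipase frees fatty acids from lipoproteins at the vessel wall, Cd36 takes them up, and an acyl-CoA synthetase traps them as acyl-CoA. Carnitine palmitoyltransferase 1 on the outer mitochondrial membrane passes the acyl group to carnitine, a carrier moves it across the inner membrane, and carnitine palmitoyltransferase 2 returns it to coenzyme A. Beta-oxidation then repeats dehydrogenation, hydration, a further dehydrogenation and thiolysis, and the electrons of its first step pass through the electron transfer flavoprotein to the respiratory chain. Thyroid hormone receptors and the fatty acid receptor PPAR alpha are nuclear receptors that share the partner RXR.

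The libraries held 45944049 to 48359735 counts in mutant hearts and 43314706 to 62095277 in control hearts. Along the first principal component, with 73.9% of the variance, the groups lay apart. Transcripts of Thra, the gene of thyroid hormone receptor alpha, were at 124.6, 142.2 and 143.0 CPM (counts scaled to library size) in mutant hearts, against 66.8, 81.6 and 81.7 CPM in control hearts. Mutant heart 1 held 10876 counts of 4 Y-linked genes and the other 5 hearts held at most 2, so 1 heart was male and all others were female. Genes of the mitochondrial genome took 17.8% ± 1.01 of the counts of mutant hearts and 24.0% ± 1.41 of those of control hearts (SD, n = 3 each). Summed markers of heart muscle cells were at 41288 to 42848 CPM in mutant hearts and 50462 to 56591 CPM in control hearts, with 5 of 10 markers lower and 0 higher, or 2 lower and 3 higher when libraries were scaled by their totals alone. Mb averaged 3029 CPM in mutant hearts and 8458 CPM in control hearts and Myl3 3286 CPM in mutant hearts and 5939 CPM in control hearts, while Actn2, Mybpc3 and Nkx2-5 had small positive fold changes that did not pass. Summed fibroblast markers were at 3018 to 3379 CPM in mutant hearts and 2635 to 2977 CPM in control hearts, with 3 of 8 higher and 0 lower, or 8 of 8 higher on library totals. Of all 14877 genes tested, 18.1% were called higher and 19.5% lower. On library totals 7479 of the 14877 were higher and 1207 lower. In whole hearts, fewer cells of a type and less RNA per cell cannot be told apart. Defining markers of fat cells (Adipoq, Cidec, Lep, Retn and Cfd) and of liver (Alb) were not among the genes listed. Listed fat cell markers summed to 56.7 to 63.9 CPM in mutant hearts and 53.0 to 65.2 CPM in control hearts. Those of liver summed to 1.79 to 2.43 CPM in mutant hearts and 0.77 to 0.91 CPM in control hearts. Of 2 liver markers tested, 1 was higher. Brown fat markers summed to 178.2 to 190.8 CPM in mutant hearts and 299.9 to 343.8 CPM in control hearts. Of 3 brown fat markers tested, 1 was higher and 1 lower.

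Most of the 30 genes were lower in mutant hearts, while the genes at the entry to the carnitine shuttle and the thioesterase gene Acot2 were higher. By edgeR's quasi-likelihood test at an adjusted p under 0.05, 20 fell, 3 rose (Acot2, Cpt1a and Cpt1b) and 7 did not pass (Cd36, Fabp3, Acsl1, Acadl, Acad10, Hadha and Ppara). Of all genes tested, 37.5% were called, 18.1% as higher and 19.5% as lower. The median log2 fold change of mutant over control was -0.42 for the 30 genes and -0.00 for all genes tested, and single genes ran between -1.25 for Acad11 and 0.94 for Acot2. For 26 of the 30 genes the 3 mutant hearts lay all above or all below the 3 control hearts, against 49.8% of all genes. These counts rest on scaling by the trimmed mean of M values (TMM), which takes most genes as unchanged: of all calls 48.1% were higher, against 86.1% when libraries were scaled by their totals alone. That scaling moved the median of all genes to 0.28 and the median of the 30 genes to -0.14. Of the 30 genes 6 were then higher and 11 lower, against 7479 higher and 1207 lower of all 14877 genes tested. A change of scaling shifts the log2 fold changes of all genes by about the same amount, as the plot of the scalings shows. The distance between the 2 medians therefore stays about the same under TMM and library totals, and is no separate check of the result. Leaving out the male heart also gave 3 higher and 20 lower, with Cd36 called lower and Eci2 no longer called. In that fit 2661 of all 15098 genes tested were higher and 2856 lower.

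**Figure D1:**
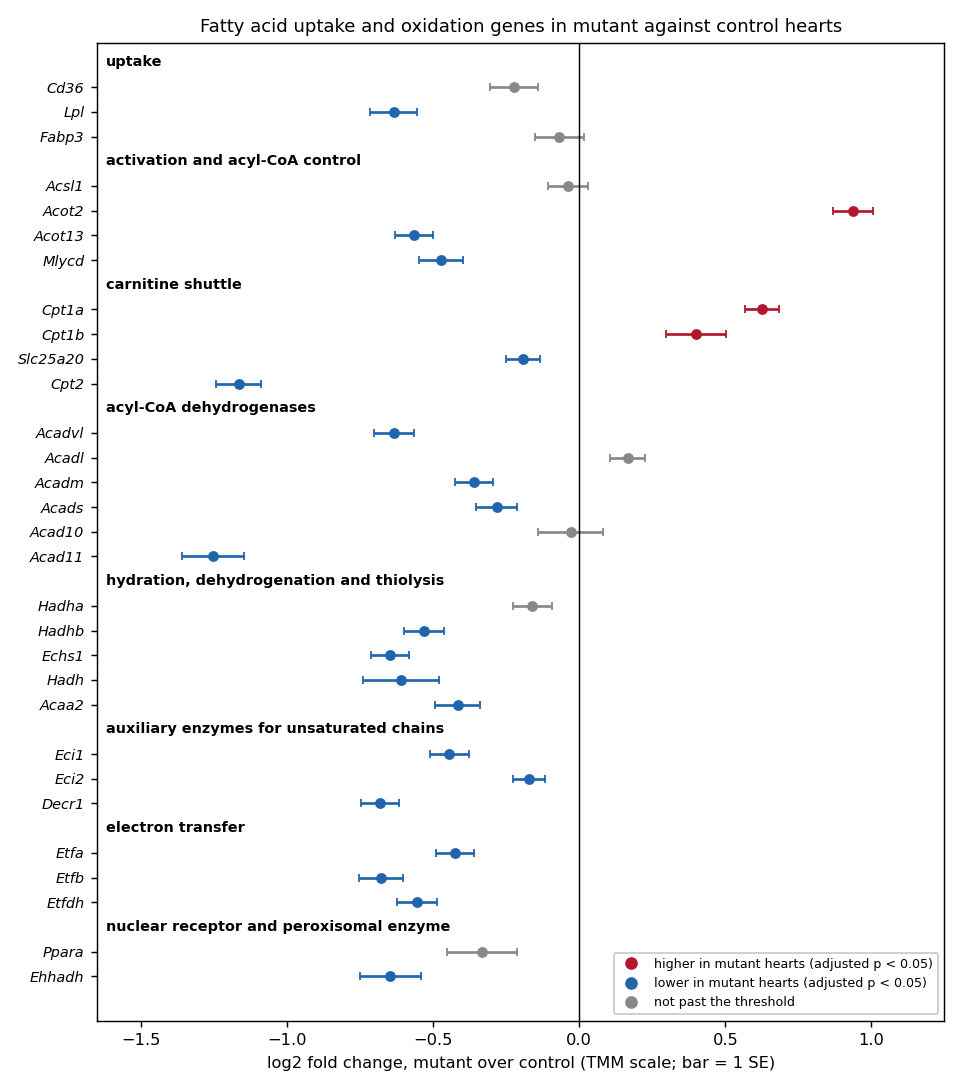
Log2 fold change of mutant over control hearts (x axis, TMM scale) for each of the 30 genes, grouped by step, with 1 SE as the bar; red marks genes higher and blue genes lower at an adjusted p under 0.05, and grey the rest. The points run between -1.25 for Acad11 and 0.94 for Acot2, and the red points belong to Acot2, Cpt1a and Cpt1b.

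**Figure D2:**
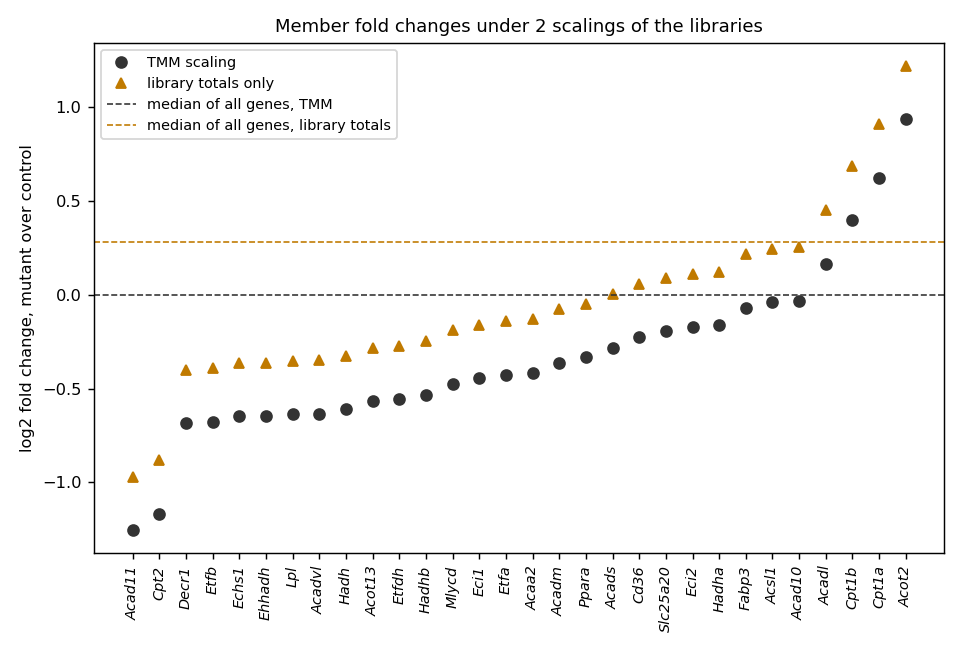
Log2 fold change of mutant over control hearts (y axis) for the 30 genes in order of size, with TMM scaling (dots) and with library totals only (triangles); dashed lines mark the median of all genes tested under each. Fold changes on library totals lie higher, as does their all-gene median of 0.28, and Slc25a20, Acads and Eci2, lower under TMM, lie above 0 there.

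Some of the 30 genes share sequence with other genes, and the handling of such reads is not given in the sources used here. For 20 genes, under 10% of the exons or of the longest coding transcript was shared with another gene or matched a copy at 95% identity or more. Of these 20, 14 fell, 1 rose (Cpt1a) and 5 did not pass. Of the 10 with more shared sequence, 6 fell, 2 rose (Acot2 and Cpt1b) and 2 did not pass. The shares over all genes tested were 18.1% higher and 19.5% lower.

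The carnitine shuttle went both ways within 1 short route. Cpt2, the enzyme of the inner membrane (ENSMUSG00000028607, chr4:107903981-107923610, minus strand, mm10), was at 129.0, 119.9 and 112.9 CPM in mutant hearts, against 248.8, 284.5 and 278.2 CPM in control hearts. Every mutant heart lay under every control heart, and Cpt2 fell 2.24-fold (log2 fold change -1.17 ± 0.08 SE, adjusted p = 3.95e-06, edgeR). Cpt1a, the form of the outer membrane enzyme known from liver and the fetal heart (ENSMUSG00000024900, chr19:3322334-3385733, plus strand), was at 183.9, 186.3 and 174.3 CPM in mutant hearts, against 115.5, 117.0 and 120.4 CPM in control hearts. Here the mutant hearts were the higher group without overlap, and Cpt1a rose 1.54-fold (0.63 ± 0.06 SE, adjusted p = 3.20e-05, edgeR). Both calls held under all 16 alternatives, the 6 that leave out a heart included.

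Cpt1b, the muscle form of the same enzyme (ENSMUSG00000078937, chr15:89416405-89425863, minus strand), was at 24.8, 29.3 and 29.99 CPM in mutant hearts, against 18.4, 22.7 and 22.5 CPM in control hearts. The groups did not overlap, and Cpt1b rose 1.32-fold (0.40 ± 0.10 SE, adjusted p = 0.0129, edgeR), a call lost without mutant heart 2 (adjusted p = 0.0557). The gene Gm44502 shares 81.4% of the exon bases of Cpt1b on the same strand, and it was not among the genes listed, so the level of Cpt1b and its place against Cpt1a are uncertain. Slc25a20, the carrier that swaps acylcarnitine for carnitine, averaged 165.7 ± 4.84 CPM in mutant hearts and 189.3 ± 7.42 CPM in control hearts (SD, n = 3 each). It fell by 0.19 on the log2 scale (adjusted p = 0.0289, edgeR), while on library totals its value was 0.09 and did not pass. Without mutant heart 2, mutant heart 3, control heart 2 or control heart 3 its adjusted p was between 0.0657 and 0.104.

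Because Cpt1a and Cpt2 moved in opposite directions, the bases before their start sites are shown, beside those of Acot2, the gene with the largest rise of the 30. The sequences come from RefSeq's table on GRCm38.p6, are written 5′ to 3′ on the strand of the gene, and leave out bases in annotated exons. Capitals mark AGGTCA or its reverse complement TGACCT, the hexamer that many nuclear receptors bind. The Cpt1a window precedes RefSeq's start, which lies downstream of the start of the gene as annotated by GENCODE and given above, so this window falls inside the GENCODE gene. The windows lie at chr19:3323051-3323284 on the plus strand, chr4:107923611-107923839 on the minus strand and chr12:83987611-83987860 on the plus strand.
Cpt1a: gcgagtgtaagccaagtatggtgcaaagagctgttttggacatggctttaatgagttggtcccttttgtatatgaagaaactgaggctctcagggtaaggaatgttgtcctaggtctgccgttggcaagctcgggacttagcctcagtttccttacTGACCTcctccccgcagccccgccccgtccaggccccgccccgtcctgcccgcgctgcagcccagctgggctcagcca
Cpt2: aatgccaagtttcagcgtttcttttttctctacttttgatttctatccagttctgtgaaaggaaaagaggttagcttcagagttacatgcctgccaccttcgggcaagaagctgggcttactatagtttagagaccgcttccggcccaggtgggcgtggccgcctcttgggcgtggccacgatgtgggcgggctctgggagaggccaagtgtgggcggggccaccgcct
Acot2: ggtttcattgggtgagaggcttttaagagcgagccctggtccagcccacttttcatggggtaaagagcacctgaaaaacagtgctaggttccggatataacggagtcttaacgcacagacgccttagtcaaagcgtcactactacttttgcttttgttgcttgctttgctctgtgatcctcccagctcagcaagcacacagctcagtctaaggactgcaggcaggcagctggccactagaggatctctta
The Cpt1a window held 1 such hexamer, and those of Cpt2 and Acot2 held 0. Across the 300-base windows of the table, from 250 bases before to 50 after each start, 5 of the 25 genes with an entry held the hexamer on either strand (Acadm, Acadvl, Cd36, Cpt1a and Echs1), and 18.1% of all genes in the table did. Of those 5 genes, 3 fell, Cpt1a rose and Cd36 did not pass. The direct repeat AGGTCANAGGTCA, to which PPAR and RXR bind as a pair, was in 0 of the 25 and in 0.0481% of all genes. The repeat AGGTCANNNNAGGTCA, a thyroid hormone receptor element, was in 0 of the 25 and in 0.0148%, and the extended hexamer TCAAGGTCA of estrogen related receptors was in 0 of the 25 and in 0.466%; all 3 longer motifs hold the hexamer within them. A match describes letters in a short window and does not show binding.

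**Figure D3:**
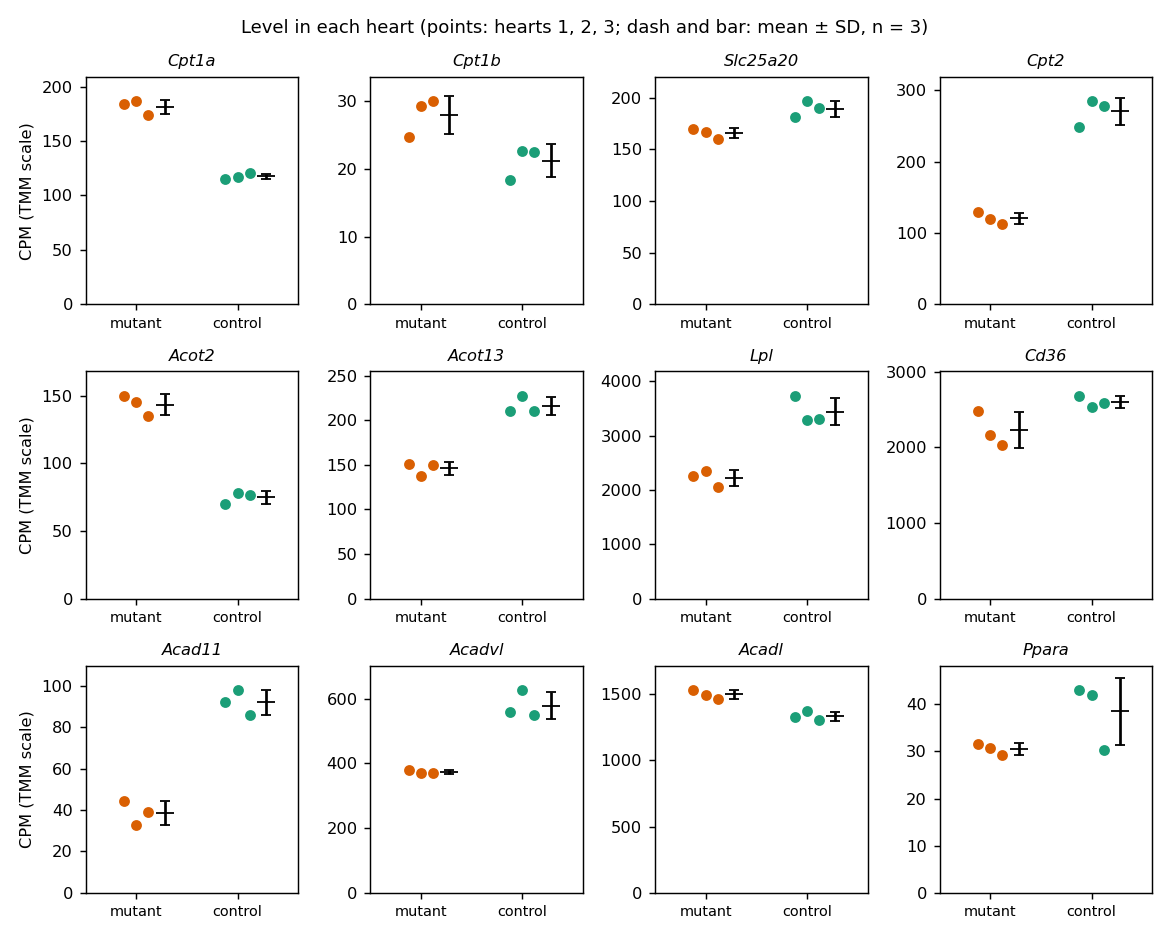
Level of 12 genes in each heart (y axis, CPM on the TMM scale, from 0), with mutant hearts at the left of each panel and control hearts at the right; points are single hearts and the dash with its bar is the mean ± SD (n = 3). Mutant hearts lie above control hearts for Cpt1a, Cpt1b, Acot2 and Acadl and below them for Slc25a20, Cpt2, Acot13, Lpl, Cd36, Acad11 and Acadvl, and 1 control heart of Ppara sits at 30.3 CPM, within the range of the mutant hearts.

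Of the 3 genes of uptake, Lpl fell and Cd36 and Fabp3 did not pass. Lpl, which encodes lipoprotein lipase (ENSMUSG00000015568, chr8:68880491-68907448, plus strand), was at 2259, 2342 and 2047 CPM in mutant hearts, against 3732, 3283 and 3303 CPM in control hearts. The groups were well apart, and Lpl fell 1.55-fold (log2 fold change -0.63 ± 0.08 SE, adjusted p = 2.40e-04, edgeR). Cd36, the fatty acid translocase of the cell surface (ENSMUSG00000002944, chr5:17781690-17888801, minus strand), was at 2487, 2164 and 2037 CPM in mutant hearts, against 2683, 2533 and 2588 CPM in control hearts. All mutant hearts were the lower ones, yet mutant heart 1 lay close to the control hearts, and the difference of -0.22 ± 0.08 SE did not pass (adjusted p = 0.0597, edgeR). It passed with DESeq2 on all 6 hearts (-0.22, adjusted p = 0.0361), and in edgeR without mutant heart 1, the male one (-0.31, adjusted p = 0.0116). Fabp3, the fatty acid binding protein of heart muscle, averaged 721.8 ± 34.3 CPM in mutant hearts and 756.4 ± 77.5 CPM in control hearts (SD, n = 3 each), with overlapping groups. Its log2 fold change of -0.07 became 0.22 on library totals, where it passed (adjusted p = 0.0422). Vessel cells also make Cd36, and macrophages make Cd36 and Lpl. The summed endothelial markers were at 2225 to 2387 CPM in mutant hearts and 2717 to 3007 CPM in control hearts, with 8 of 11 lower under TMM and 0 called on library totals. The summed macrophage markers were at 94.9 to 101.0 CPM in mutant hearts and 147.3 to 158.7 CPM in control hearts, with 7 of 8 lower under both scalings. Their part in the values of Cd36 and Lpl was not tested.

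The genes that make, spend or control acyl-CoA split as well. Acot2, a thioesterase of the mitochondrial matrix that frees fatty acids from coenzyme A (ENSMUSG00000021226, chr12:83987861-83993873, plus strand), was at 150.2, 145.4 and 134.8 CPM in mutant hearts, against 69.8, 78.5 and 76.4 CPM in control hearts. It rose 1.91-fold without overlap (log2 fold change 0.94 ± 0.07 SE, adjusted p = 8.45e-06, edgeR). A stretch covering 58.0% of its transcript is 95.1% identical to Acot1, its cytosolic neighbour in the same gene cluster, which was itself higher in mutant hearts, so reads of the pair could be split between them. Acot13, another mitochondrial thioesterase (ENSMUSG00000006717, chr13:24817948-24831540, minus strand), was at 150.8, 137.5 and 150.0 CPM in mutant hearts, against 210.8, 227.7 and 210.2 CPM in control hearts. It moved the other way from Acot2, a 1.48-fold fall (-0.57 ± 0.06 SE, adjusted p = 1.25e-04, edgeR). Mlycd, which removes malonyl-CoA, the inhibitor of carnitine palmitoyltransferase 1, averaged 98.0 ± 3.42 CPM in mutant hearts and 136.1 ± 12.4 CPM in control hearts (SD, n = 3 each). It fell by 0.47 on the log2 scale (adjusted p = 9.47e-04, edgeR), and did not pass on library totals (-0.19, adjusted p = 0.0526). Acsl1, the main long chain acyl-CoA synthetase of the heart, averaged 1068 ± 42.8 CPM in mutant hearts and 1097 ± 69.2 CPM in control hearts, with a log2 fold change of -0.04 that did not pass. On library totals Acsl1 was higher by 0.25 and passed (adjusted p = 0.0128).

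Among the 6 acyl-CoA dehydrogenases, which open each round of beta-oxidation, 4 fell and 2 did not pass. Acad11, a less studied member of the family (ENSMUSG00000090150, chr9:104063377-104127725, plus strand), was at 44.3, 32.7 and 39.0 CPM in mutant hearts, against 92.3, 98.2 and 85.9 CPM in control hearts. Its fall of 2.38-fold was the largest of the 30 genes (log2 fold change -1.25 ± 0.11 SE, adjusted p = 1.98e-05, edgeR). On the opposite strand, Ackr4 shares 4.89% of the exon bases of Acad11 and matches 14.1% of its longest coding transcript, of which 18.9% is matched by other genes in all. Ackr4 itself held 362 to 415 counts in mutant hearts and 204 to 334 in control hearts. Acadvl, the enzyme for very long chains (ENSMUSG00000018574, chr11:70010183-70015411, minus strand), was at 380.2, 369.4 and 369.6 CPM in mutant hearts, against 560.0, 627.0 and 548.9 CPM in control hearts. The mutant hearts were within a few percent of one another, and Acadvl fell 1.55-fold (-0.63 ± 0.07 SE, adjusted p = 8.84e-05, edgeR). The gene Dvl2 on the opposite strand shares 42.9% of its exon bases, and Dvl2 itself held 697 to 1032 counts in mutant hearts and 438 to 667 in control hearts, where Acadvl held at least 18775 counts in every heart.

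The dehydrogenases for shorter chains differed in size and sign. Acadm, for medium chains, averaged 700.4 ± 11.6 CPM in mutant hearts and 899.2 ± 49.5 CPM in control hearts, and Acads, for short chains, 152.4 ± 1.99 CPM in mutant hearts and 185.4 ± 15.4 CPM in control hearts (SD, n = 3 each). They fell by 0.36 and by 0.28 on the log2 scale (adjusted p = 0.00182 for Acadm and 0.0106 for Acads, edgeR), and on library totals neither passed, with Acads at 0.00. Acadl, for long chains (ENSMUSG00000026003, chr1:66830839-66863277, minus strand), was at 1530, 1496 and 1462 CPM in mutant hearts, against 1323, 1370 and 1306 CPM in control hearts. It stood apart from the others in direction: the mutant hearts were the higher ones without overlap, at a log2 fold change of 0.17 ± 0.06 SE that missed the threshold (adjusted p = 0.0547, edgeR). Acadl passed under 8 of the 16 alternatives, DESeq2 among them (adjusted p = 0.0244), and on library totals at 0.45. Acad10 held the fewest counts of the 30 and averaged 7.02 ± 0.68 CPM in mutant hearts and 7.16 ± 0.68 CPM in control hearts, and did not pass. Its transcript matches the neighbouring Acad12 over 47.5% of its length.

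The later reactions of each round were lower in 4 of 5 genes. Echs1, the enoyl-CoA hydratase for short chains (ENSMUSG00000025465, chr7:140105710-140116476, minus strand), was at 193.6, 172.3 and 180.6 CPM in mutant hearts, against 274.8, 293.8 and 287.9 CPM in control hearts. The groups did not overlap and Echs1 fell 1.57-fold (log2 fold change -0.65 ± 0.06 SE, adjusted p = 5.42e-05, edgeR). Hadhb, the beta subunit of the trifunctional protein that carries out the last 3 reactions on long chains (ENSMUSG00000059447, chr5:30155248-30184593, plus strand), was at 152.9, 150.1 and 140.0 CPM in mutant hearts, against 219.1, 223.3 and 197.9 CPM in control hearts. It fell 1.45-fold (-0.53 ± 0.07 SE, adjusted p = 2.57e-04, edgeR). Hadha, the alpha subunit of the same complex, averaged 1593 ± 44.4 CPM in mutant hearts and 1781 ± 96.0 CPM in control hearts (SD, n = 3 each), a difference of -0.16 that did not pass (adjusted p = 0.0848, edgeR). Processed pseudogenes (Gm13910 and Gm9108) match 69.7% of the Hadhb transcript and were not among the genes listed, so the level of Hadhb relative to Hadha is uncertain. Hadh, the 3-hydroxyacyl-CoA dehydrogenase for shorter chains, averaged 394.5 ± 45.6 CPM in mutant hearts and 602.0 ± 105 CPM in control hearts, and Acaa2, the mitochondrial thiolase, 852.7 ± 34.1 CPM in mutant hearts and 1137 ± 96.9 CPM in control hearts. Hadh fell by 0.61 (adjusted p = 0.00515) and Acaa2 by 0.42 (adjusted p = 0.00228, edgeR), and neither passed on library totals.

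Hadha and Hadhb lie head to head, with 85 bases between the start of one on the minus strand and of the other on the plus strand. That stretch is shown whole because 1 short sequence separates the starts of both subunits. It lies at chr5:30155163-30155247 (GRCm38.p6, RefSeq's table, plus strand, the strand of Hadhb), has 69.4% G and C, and holds 0 copies of the hexamer.
Hadha-Hadhb: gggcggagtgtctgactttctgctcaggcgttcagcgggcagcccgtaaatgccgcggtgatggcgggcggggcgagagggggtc

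The enzymes that prepare unsaturated chains were lower in 3 of 3 genes, with Eci2 turning to 0.11 on library totals, where it did not pass, and called higher by limma on log2(RPKM + 1) with no filter (0.11, adjusted p = 0.0320). Decr1, the mitochondrial dienoyl-CoA reductase (ENSMUSG00000028223, chr4:15917240-15945507, minus strand), was at 385.1, 354.7 and 342.3 CPM in mutant hearts, against 568.0, 590.8 and 577.6 CPM in control hearts. It fell to 0.623 times the control level (log2 fold change -0.68 ± 0.07 SE, adjusted p = 4.20e-05, edgeR), with the groups far apart. Eci1, an enoyl-CoA isomerase (ENSMUSG00000024132, chr17:24426641-24439348, plus strand), was at 160.8, 154.4 and 171.9 CPM in mutant hearts, against 211.7, 233.7 and 217.3 CPM in control hearts. Eci1 fell 1.36-fold (-0.44 ± 0.07 SE, adjusted p = 6.60e-04, edgeR) and did not pass on library totals (adjusted p = 0.0780). Eci2, the related isomerase found in peroxisomes as well, averaged 148.2 ± 1.9 CPM in mutant hearts and 166.9 ± 5.09 CPM in control hearts (SD, n = 3 each). Its fall of 0.17 (adjusted p = 0.0363, edgeR) was lost in 5 of the 6 fits that leave out a heart, all but the one without control heart 1, with adjusted p between 0.0533 and 0.109.

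All 3 genes of electron transfer fell, and Etfb and Etfdh did so under each of the 16 alternatives. Etfb, the beta subunit of the electron transfer flavoprotein (ENSMUSG00000004610, chr7:43444083-43457800, plus strand), was at 47.1, 44.6 and 49.0 CPM in mutant hearts, against 68.1, 79.4 and 77.5 CPM in control hearts. It fell to 0.625 times the control level (log2 fold change -0.68 ± 0.08 SE, adjusted p = 1.07e-04, edgeR), and 58.2% of its exon bases are shared with other annotated genes on the same strand. Etfdh, the oxidoreductase that hands the electrons on to ubiquinone (ENSMUSG00000027809, chr3:79603788-79629500, minus strand), was at 489.9, 473.0 and 442.6 CPM in mutant hearts, against 667.1, 730.1 and 667.7 CPM in control hearts. Its fall was 1.47-fold (-0.56 ± 0.07 SE, adjusted p = 1.99e-04, edgeR). Etfa, the alpha subunit, averaged 387.3 ± 21.0 CPM in mutant hearts and 520.1 ± 11.8 CPM in control hearts (SD, n = 3 each) and fell by 0.43 (adjusted p = 6.53e-04, edgeR), against -0.14 on library totals, which did not pass.

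Ppara, which encodes the receptor PPAR alpha, an activator of many genes of this pathway (ENSMUSG00000022383, chr15:85734983-85802819, plus strand), was at 31.7, 30.8 and 29.2 CPM in mutant hearts, against 43.1, 42.1 and 30.3 CPM in control hearts. Control heart 3 lay among the mutant hearts, and the difference of -0.33 ± 0.12 SE did not pass (adjusted p = 0.0550, edgeR). Without control heart 3 it passed at -0.48 (adjusted p = 7.57e-04), and it also passed with DESeq2 (adjusted p = 0.0277). Ehhadh, a peroxisomal enzyme with a hydratase and a dehydrogenase activity (ENSMUSG00000022853, chr16:21761287-21787807, minus strand), was at 9.20, 7.28 and 8.80 CPM in mutant hearts, against 14.1, 13.0 and 12.5 CPM in control hearts. It fell 1.56-fold without overlap (-0.65 ± 0.10 SE, adjusted p = 0.00102, edgeR).

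Per length, the levels of the 30 genes spanned nearly 3 orders of magnitude. By the authors' RPKM (counts scaled to gene length and library total), Fabp3 stood first with 961.4 ± 30.1 in mutant hearts and 828.2 ± 86.1 in control hearts (SD, n = 3 each). Acadl came next with 818.1 ± 3.50 RPKM in mutant hearts and 599.0 ± 16.0 RPKM in control hearts, before Cd36 and Acaa2. Acad10 stood last, with 1.27 ± 0.15 RPKM in mutant hearts and 1.06 ± 0.10 RPKM in control hearts. RPKM is not corrected for library composition, so it sets mutant above control for some genes that were lower in CPM, Cd36 among them. The gene lengths behind it run past the longest coding transcript for some genes, 5.35 times for Echs1, which lowers their place in this order. The 30 genes together took 1.62% ± 0.036 of all counts in mutant hearts and 1.66% ± 0.043 in control hearts (SD, n = 3 each), a difference within the spread between hearts (exact permutation test, two-sided, p = 0.4). Of the counts outside the mitochondrial genome they took 1.97% ± 0.068 in mutant hearts and 2.18% ± 0.019 in control hearts, without overlap (exact permutation test, p = 0.1, the smallest that 3 against 3 hearts allow).

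Ratios between 2 genes within a heart do not depend on how libraries are scaled against each other, and 8 pairs were compared, each of 2 genes grouped in the same step. The groups did not overlap for 7 of them, each with p = 0.1, the smallest the exact permutation test allows here, and 0.114 adjusted over the 8 pairs, so no pair could reach the threshold. Among all genes tested, taken singly, 49.8% did not overlap, and the share for other pairs of genes was not computed. Cpt2 over Slc25a20, both of the inner membrane, was 1.54, 1.45 and 1.43 in mutant hearts, against 2.78, 2.93 and 2.97 in control hearts, a log2 difference of -0.97. Acot2 over Acot13 was 0.327, 0.347 and 0.295 in mutant hearts, against 0.109, 0.113 and 0.119 in control hearts, a log2 difference of 1.504. These were the widest shifts of the 8, in opposite directions.

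Among the dehydrogenases, Acadm over Acadl was 0.239, 0.238 and 0.242 in mutant hearts, against 0.340, 0.357 and 0.339 in control hearts, and Acadvl over Acads averaged 2.07 ± 0.012 in mutant hearts and 2.64 ± 0.14 in control hearts (SD, n = 3 each). Acadl was thus the higher in relation to Acadm in every mutant heart. Hadha over Hadhb averaged 8.15 ± 0.15 in mutant hearts and 6.31 ± 0.38 in control hearts, Etfa over Etfb 5.24 ± 0.23 in mutant hearts and 4.42 ± 0.43 in control hearts, and Cd36 over Lpl 2.94 ± 0.26 in mutant hearts and 2.21 ± 0.10 in control hearts. Their log2 differences were 0.37, 0.25 and 0.41, with every mutant heart above every control heart. Cpt1a over Cpt1b, at 5.12 ± 0.64 in mutant hearts and 4.39 ± 0.47 in control hearts, overlapped between the groups (exact permutation test, p = 0.2). A pair chosen after its values were seen, Cpt2 over Cpt1a, was 1.26, 1.16 and 1.17 in mutant hearts, against 3.87, 4.37 and 4.16 in control hearts. Another chosen in that way, Acadvl over Acadl, averaged 0.186 ± 0.0022 in mutant hearts and 0.324 ± 0.015 in control hearts.

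**Figure D4:**
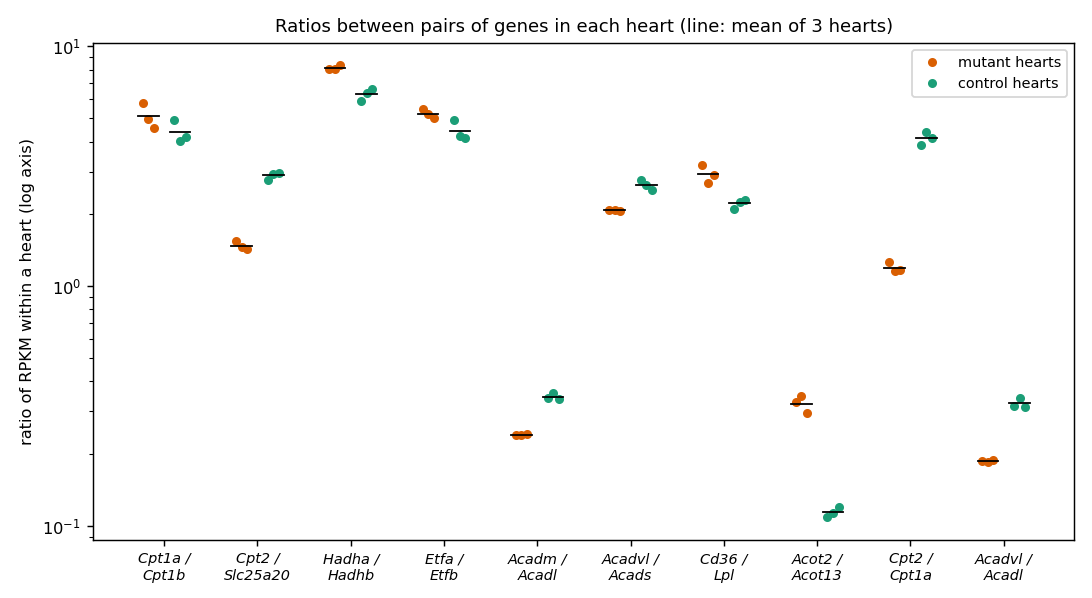
Ratio of the RPKM values of 2 genes within each heart (y axis, log axis) for 10 pairs, with mutant hearts (orange, left) and control hearts (green, right); points are single hearts and lines the mean of 3. Only Cpt1a over Cpt1b overlaps between the groups, and Cpt2 over Cpt1a is near 1.2 in mutant hearts and near 4.1 in control hearts.

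The wider pathway was read from 97 further genes, of which 92 were tested. By edgeR at an adjusted p under 0.05, 50 fell, 12 rose and 30 did not pass, with a median log2 fold change of -0.26, against 37.5% of all genes called and a median of -0.00. Among 12 genes of fatty acid transport and partners of lipoprotein lipase, 4 fell and 2 rose. Angptl4, an inhibitor of lipoprotein lipase, rose to 124.3 ± 9.79 CPM in mutant hearts, against 55.6 ± 5.32 CPM in control hearts (SD, n = 3 each, log2 fold change 1.16, adjusted p = 9.39e-06, edgeR), beside the lower Lpl. The carnitine transporter gene Slc22a5 fell by 0.50, the lipoprotein receptor gene Vldlr by 0.43, and Gpihbp1, which anchors lipoprotein lipase to capillaries, by 0.39. The calls of Vldlr and Gpihbp1 were lost on library totals, where 4 genes of this list were higher and 1 lower. Acbd3, a Golgi protein with an acyl-CoA binding domain, rose by 0.24, a call lost without mutant heart 1, mutant heart 2, control heart 2 or control heart 3, and the call of Gpihbp1 was lost without mutant heart 2 or 3. Fabp4, another endothelial marker, fell by 0.38, a call lost without any 1 heart but mutant heart 1.

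Of 7 further acyl-CoA synthetase genes 4 fell and 1 rose, against 3 lower and 3 higher on library totals. Acsl3, which acts on long chains at the endoplasmic reticulum and lipid droplets, was at 42.7 ± 3.22 CPM in mutant hearts and 12.5 ± 0.95 CPM in control hearts (SD, n = 3 each), a rise of 1.78 on the log2 scale (adjusted p = 6.36e-07, edgeR). Acss1, which activates acetate in mitochondria, fell by 0.86, and Acsl6 and Acsm5 fell at low levels, with 22 and 11 counts over the 3 mutant hearts and 161 and 84 over the 3 control hearts. Of 7 further thioesterases 3 rose and 2 fell. Acot1, the cytosolic neighbour of Acot2, was at 86.0 ± 7.44 CPM in mutant hearts and 24.2 ± 5.30 CPM in control hearts (log2 fold change 1.83, adjusted p = 9.85e-06, edgeR). Acot7 rose by 0.36 and Acot4 by 0.57, the call of Acot4 being lost without mutant heart 1 or control heart 2, while Them4 fell by 0.39 and Acot11 by 0.32. On library totals 4 of the 7 thioesterases were higher and 0 lower.

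Of 9 genes that control malonyl-CoA and acylcarnitine, 3 fell and 1 rose, with a median log2 fold change of -0.09. The share called, 44.4%, was near the 37.5% of all genes tested. Acacb, which makes malonyl-CoA at the mitochondrion, fell by 0.55 (adjusted p = 7.70e-04), beside the lower Mlycd that removes it. Slc25a29, a mitochondrial carrier related to the carnitine carrier, fell by 2.10 (adjusted p = 3.75e-05), and Prkab2, a subunit of the AMP activated kinase, rose by 0.42 (adjusted p = 3.22e-04, edgeR). Crat, the carnitine acetyltransferase, fell by 0.27, a call lost without mutant heart 2, control heart 2 or control heart 3, and turned to 0.02 on library totals, where 5 genes of this list were higher and 2 lower.

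Further genes listed under oxidation, peroxisomes and lipid droplets were mostly lower under TMM scaling, and less so on library totals. Of 10 enzymes listed as further ones of mitochondrial beta-oxidation 9 fell and 0 rose, against 5 lower and 0 higher on library totals. Ivd, a dehydrogenase of leucine breakdown, was at 93.4 ± 4.18 CPM in mutant hearts and 198.4 ± 9.70 CPM in control hearts (log2 fold change -1.09, adjusted p = 2.30e-06, edgeR). Nudt7, a coenzyme A hydrolase of peroxisomes, fell by 0.95, so this list is not wholly mitochondrial. Several of these 10, such as Ivd, Hibadh (fell by 0.71) and Hibch (fell by 0.68), act on branched chain amino acids rather than fatty acids. Of 15 peroxisomal genes 11 fell and 1 rose, against 6 lower and 3 higher on library totals. Abcd2, a transporter of very long chains into peroxisomes, fell by 1.63, Abcd3 by 0.85, Phyh, which starts alpha-oxidation, by 0.73, and Scp2 by 0.65, while the peroxisomal reductase gene Decr2 rose by 0.37. Of 12 genes of lipid droplets and lipolysis 8 fell and 0 rose, against 6 lower and 4 higher on library totals. Dgat2, which makes triglyceride, was at 69.1 ± 9.28 CPM in mutant hearts and 249.1 ± 35.3 CPM in control hearts (log2 fold change -1.85, adjusted p = 4.55e-06, edgeR). Pnpla2, the lipase that begins triglyceride breakdown, fell by 1.27, its activator gene Abhd5 by 0.52, and Gpam, which starts glycerolipid synthesis, by 0.49.

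PPAR alpha has partners and targets outside the 30 genes. Of 13 genes of nuclear receptors and their cofactors 6 fell and 1 rose, against 4 lower and 4 higher on library totals. The share called under TMM was 53.85%, against 37.5% of all genes tested. Rxrg, an RXR that muscle expresses, was at 14.9 ± 2.77 CPM in mutant hearts and 55.8 ± 5.04 CPM in control hearts (SD, n = 3 each, log2 fold change -1.903, adjusted p = 4.05e-06, edgeR). Ppard fell by 0.92, Esrrb by 0.67 and Pparg by 0.58, and Esrrg rose by 0.28, a call lost without mutant heart 1 or control heart 3. Ppargc1a, the coactivator of these receptors, was at 347.0 ± 18.6 CPM in mutant hearts and 361.6 ± 103 CPM in control hearts and did not pass. Of 15 further genes known as PPAR alpha targets, some of them also in the lists above, 7 fell and 5 rose, and 6 of each on library totals. Among those that rose were Acot1 and Angptl4, given above, Cyp4b1 (by 0.83, adjusted p = 1.54e-04) and Txnip (by 0.68, adjusted p = 8.145e-04, edgeR), while Ucp2 fell by 1.74, Ucp3 by 1.06 and the kinase gene Pdk4 by 0.59. The targets thus went both ways. The level of Ppara itself did not pass in the main fit but passed as lower in the alternatives given above, and its link to these targets was not tested.

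**Figure D5:**
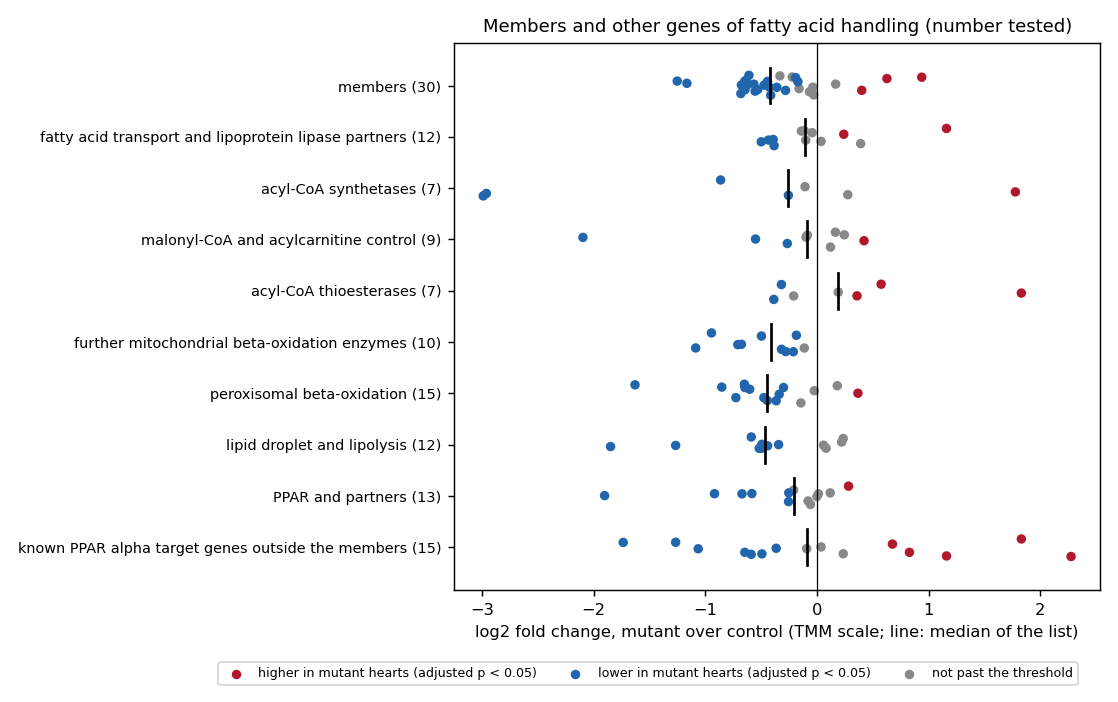
Log2 fold change of mutant over control hearts (x axis, TMM scale) for the 30 genes (members) and for 9 lists of other genes of fatty acid handling, 1 point a gene, with the median of each list as a line; red marks genes higher and blue genes lower at an adjusted p under 0.05. The medians run from 0.19 for the thioesterases to -0.47 for lipid droplets and lipolysis, and on library totals those of transport, synthetases, malonyl-CoA control, PPAR partners and PPAR alpha targets lie above 0.

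The other fuel pathways give a setting for these values. The median log2 fold change was -0.42 for the 30 genes of fatty acid uptake and oxidation, against -0.64 for 25 genes of the citric acid cycle and pyruvate dehydrogenase, of which 24 fell and 0 rose. On library totals the medians were -0.14 for the 30 genes and -0.36 for the 25, of which 21 fell and 1 rose. In glucose uptake and glycolysis, 12 of 22 genes fell and 3 rose, with a median of -0.36, against 7 lower, 6 higher and a median of -0.07 on library totals. No test of the difference between these lists was made.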

How the data were processed

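Whole hearts of 3 mutant and 3 control pups were flash frozen. RNA came from a Trizol extraction and went into TruSeq RNA libraries (kit version 2), per the labels' protocols. The tools, per the submitters' processing notes, were STAR 2.5.2b, featureCounts 1.5.1 and cutadapt 1.9, with build mm10. Not given in the sources used here are the annotation and the settings for strand and multiple mapping; the kit does not mark strand. Deposited counts are unscaled whole numbers for Ensembl genes, and the RPKM values deposited by the authors are those counts divided by gene length and library total. Each library came from its own pup, so p-values reflect the spread among these 6 hearts.

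Symbols and positions came from GENCODE M21 (same build). The count test was that of edgeR 4.0.16 under R 4.3.3 (filterByExpr at its defaults, TMM scaling, quasi-likelihood test with group as the only term, Benjamini-Hochberg adjustment over 14877 genes, called at an adjusted p under 0.05). CPM values are counts over TMM-scaled library sizes. The SE of a log2 fold change is its size over the square root of F. In counts simulated for the mutant and control hearts, 200 of 14801 genes changed. Recovered were 54% of 1.5-fold, 84% of 2-fold and 100% of 4-fold and 8-fold changes. Of the calls 9.14% were false, above the 0.05 that the adjustment aims at. In the data 37.5% of genes were called, so the simulation does not probe TMM scaling where many genes change. Single values were compared by exact permutation tests (SciPy 1.17.1). Transcripts were matched to copies with BLAST 2.17.0 (matches of 100 bases or more at 95% identity or more). Alternatives used DESeq2 1.42.0 and limma 3.58.1. No library was a duplicate of another: within groups, counts differed by more than sampling noise.

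The 30 members, the lists and the rule for naming genes were chosen with earlier results of these data known. Values per heart are given for members called higher, for the called members of each step with the lowest adjusted p (2 at most), and for Ppara, Lpl and Cd36. Of each list of other genes, those named are the called genes with the lowest adjusted p (4 at most) and those against the majority. Chosen after their values were seen were the values per heart of Acadl, and Acot4, Fabp4, Ppargc1a and Pdk4. Promoters were searched in RefSeq's table, which holds 25 of the 30 members. A gene that the naming rule would pick is not reported here.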

Additional observations from a re-analysis of the deposited data

How the results depend on the processing

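Of 16 alternatives, 13 members kept both direction and call under each (Acad11, Acadvl, Acot13, Acot2, Cpt1a, Cpt2, Decr1, Echs1, Ehhadh, Etfb, Etfdh, Hadhb and Lpl). DESeq2, RLE, upper-quartile and TMM factors without the mitochondrial genome gave 4 members higher and 20 to 22 lower. Scalings without a composition factor moved the counts: library totals gave 7479 genes higher and 1207 lower, limma on log2(RPKM + 1) 6713 and 1093, on log2(RPKM + 0.1) 6617 and 1060, and on log2(RPKM + 1) with no filter 6891 and 1157. In that order, members higher were 6, 6, 5 and 6, members lower 11, 11, 11 and 12, and the members' median -0.14 in each. Log2 fold changes that changed sign there were, in the same order, Acsl1 (0.25, 0.24, 0.25 and 0.24), Slc25a20 (0.093, 0.089, 0.092 and 0.089), Acads (0.0027, 0.0046, 0.0047 and 0.0046), Eci2 (0.11 in each, passing as higher in the fourth, adjusted p = 0.0320) and Fabp3 (0.22 in each, passing in the first and the second). Cd36, Hadha and Acad10 also turned positive on library totals without passing under either. On library totals the median of all genes was 0.28, and genes slightly below 0 under TMM moved above 0 with that shift. The cause of the difference in library composition was not tested. Counted over members with under 10% shared sequence, a choice made after seeing the data, 1 rose and 14 fell. Over all genes tested, 18.1% were higher and 19.5% lower. Leaving out 1 heart gave 2 to 3 members higher, 18 to 20 lower, a median of -0.45 to -0.38, 2039 to 2661 genes higher and 2234 to 2856 lower. The members' share of counts differed by -0.059 to -0.018 percentage points without 1 heart, and by -0.22 outside the mitochondrial genome, against -0.043. Deviations of same-numbered hearts correlated at 0.155, -0.0502 and 0.0956, against -0.175 to 0.0913 for hearts of different number. With 3 hearts a group, these values cannot decide whether the numbers pair the hearts. With the replicate block in edgeR 3 members rose and 22 fell, Cd36 among them (-0.23, adjusted p = 0.0450). In that fit 3090 genes were higher and 3229 lower. Members held at least 255 counts in every heart, so depth limits Acad10 and Ehhadh most.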
